A study of Homo sapiens with 3 samples.

Results

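The Notch pathway genes described here are receptors, ligands, the DNA-binding cofactor, target genes and 1 inhibitor of Notch signalling, taken from a list of 10 genes, and they were measured in RH30 cells, an alveolar rhabdomyosarcoma line. A probe set, the group of oligonucleotides on the array that reads 1 transcript, counted as a member when the platform annotation named 1 of the listed genes and no other gene. That left 20 probe sets for 8 genes, out of 19064 single-gene probe sets for 11963 genes in all: NOTCH1, NOTCH2, NOTCH3, JAG1, JAG2, RBPJ, HES1 and HEY1. NUMB, which antagonises Notch receptors, has 2 probe sets that also name another gene, so no value is given for it, and DLL1 had no probe set of its own in the annotation used here.

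The cells had received an anti-MYCN PNA at 10 µM, a mutated anti-MYCN PNA at 10 µM, or nothing, and all 3 samples carry the time of 12 hours in their titles. A PNA is a synthetic nucleic acid analogue whose bases hang on a peptide-like backbone, and the mutated one stands in the study as an inactive control. All groups are the same cell line in the same serum-containing medium. Each group is 1 array, and the labels are silent on whether the cultures were separate. With 1 array per group no difference has a replicate error or a test. The labels of the array called untreated contradict each other: mutated PNA stands in the source name, against untreated in both the title and the treatment text. Every direction against it rests on the title.

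Notch receptors are single-pass membrane proteins that are activated by ligands of the Jagged and Delta families on neighbouring cells. Proteases then cut the receptor, and its freed intracellular domain joins RBPJ on DNA, where it switches on repressor genes of the HES and HEY families. In skeletal muscle the pathway is known for holding myogenic precursors in an undifferentiated state, with HES and HEY proteins restraining the myogenic programme driven by MYOD1.

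HES1 is the textbook case of a gene switched on through RBPJ, and its upstream sequence is shown because its signal is one readout of the pathway. The sequence upstream of a RBPJ start is shown because it holds the same motif on both strands, and that of NOTCH3 because NOTCH3 was the listed gene furthest from both controls. The motif searched was GTGGGAA, the core of the RBPJ site, on either strand, in the 250 bases before each annotated start. Each stretch of 120 bases is from RefSeq (GRCh38.p14), reads 5′ to 3′ on the gene's own strand, and has matches in capitals.
HES1, chr3:194136028-194136147, plus strand: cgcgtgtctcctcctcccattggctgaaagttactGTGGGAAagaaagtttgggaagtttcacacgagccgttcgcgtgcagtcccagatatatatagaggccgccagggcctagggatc
RBPJ, chr4:26319616-26319735, plus strand: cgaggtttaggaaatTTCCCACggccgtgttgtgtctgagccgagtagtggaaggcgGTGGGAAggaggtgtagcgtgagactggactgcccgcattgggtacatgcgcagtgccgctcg
NOTCH3, chr19:15200996-15201115, minus strand: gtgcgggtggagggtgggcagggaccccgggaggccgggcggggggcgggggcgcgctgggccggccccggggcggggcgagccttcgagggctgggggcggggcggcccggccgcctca

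The HES1 match starts 85 bases before the start of transcription. The RBPJ matches start 115 and 73 bases before a start, one of the 5 that RefSeq gives this gene. Over all genes, 5.43% of 35116 such windows held the motif, and 6.69% of 27305 genes had a window with it. The table held windows for 8 of the 10 listed genes, HEY1 and DLL1 being the others, and HES1 and RBPJ were those with a match. The E-box CACGTG, which MYC-family proteins are known to bind and which reads the same on both strands, occurred in none of the listed genes' 12 windows and in 6.34% of all windows. A match is a string of letters, and a window without one says nothing about binding elsewhere.

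The arrays themselves were not alike. MYCN, the targeted gene, read 2202 on the anti-MYCN PNA array, 2803 on the mutated PNA array and 3313 on the untreated array by its brightest probe set. The 24 poly-A spike probe sets, which read bacterial transcripts usually added before labelling, were all lower with anti-MYCN PNA than on both controls, at a median ratio of 0.382 to mutated PNA and 0.410 to untreated; their part in the results below was not tested. Median signals over gene probe sets were 127 with anti-MYCN PNA, 112 with mutated PNA and 111 without PNA. Of 8 myoblast and rhabdomyosarcoma markers 7 passed the signal filter, MYOD1, MYOG and DES among them, with summed signals of 19924 for anti-MYCN PNA, 15712 for mutated PNA and 17793 for untreated cells. No measured epithelial marker (of 6), leukocyte marker (of 5) or endothelial marker (of 5) passed it, and of 5 fibroblast markers PDGFRA did. Bright sets weigh most in the myoblast sum. MYOG had another order, with 1024 in anti-MYCN PNA cells, 1238 in mutated PNA cells and 748 in untreated cells. The epithelial, leukocyte and endothelial sums, all from dim signals, were also highest with anti-MYCN PNA, and the fibroblast sum was highest in untreated cells. In bulk RNA, fewer cells expressing a gene and less RNA per cell cannot be told apart.

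Values are MAS5 signals, a linear brightness scale. Signals below 23.4, the 25th percentile over the 3 arrays, were set to that floor before log2 was taken. A probe set passed the filter when its mean signal over the 3 arrays reached 117, the 50th percentile. The brightest probe set by mean signal stands for each gene, and a gene is called when arrays differ by at least 2-fold. All 8 measured Notch genes passed, each with a mean of the 2 control signals above the filter too, and 15 of the 20 probe sets did. The spread between the 2 control arrays among genes of like signal, taken as 1 of 10 classes over 6745 genes, is the only background available. Over all genes the SD was 0.51 for anti-MYCN PNA minus either control and 0.28 between the controls. Lying outside the control spread is therefore more common in comparisons with the treated array. The share of genes outside it there was not counted. Over all genes the middle 95% of differences ran from −0.97 to 1.02 against mutated PNA and from −0.98 to 1.06 against untreated. Lying outside the control spread does not by itself set a gene apart from all genes. Signals of different probe sets are not compared as levels, since probes differ in brightness.

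The receptors NOTCH3 and NOTCH1 read higher with anti-MYCN PNA than on both controls, NOTCH3 by more than 2-fold and NOTCH1 by less, while the brightest NOTCH2 probe set lay between the controls. The signal of NOTCH3, a receptor best known from vascular smooth muscle, was 1512 in anti-MYCN PNA cells, 735 in mutated PNA cells and 676 in untreated cells (probe set 203238_s_at). The treated array stands apart and the controls lie close together. The log2 difference was 1.04 to mutated PNA and 1.16 to untreated, 2.06-fold and 2.24-fold, while mutated PNA minus untreated was 0.12 and 95% of the 674 genes of like signal differed by at most 0.42 between the controls. Counting NOTCH3, 2 genes of this class and 58 of all 6745 lay as far above both controls.

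The call for NOTCH3 depended on how the arrays were brought to one level. With equal medians in place of equal trimmed means its differences were 0.87 to mutated PNA and 0.96 to untreated, both under 2-fold. That scaling moved the median difference of all genes to −0.11 and −0.14, against 0.06 in both comparisons otherwise. Relative to the median of all genes, NOTCH3 lay 0.98 above mutated PNA and 1.10 above untreated under the trimmed mean. The dimmer NOTCH3 probe set, 203237_s_at, read 27.8 in anti-MYCN PNA cells, 9.50 in mutated PNA cells and 13.0 in untreated cells. Its order of arrays has the treated one on top as well, but both control signals are below the floor and it did not pass the filter.

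NOTCH1, the founding receptor of the family, read 658 in anti-MYCN PNA cells, 469 in mutated PNA cells and 409 in untreated cells from its single probe set, 218902_at. The treated array is the highest and untreated the lowest. Its log2 differences were 0.49 to mutated PNA and 0.69 to untreated, against a control spread of 0.50 at like signal, so the first difference is inside that spread and the second outside it. With equal medians the difference to untreated was 0.49, inside the spread too. In all, 820 genes were as far or further above both controls.

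NOTCH2, another receptor, had 4 probe sets that passed the filter, and they did not give one order. The brightest, 202443_x_at, read 2485 in anti-MYCN PNA cells, 2691 in mutated PNA cells and 2226 in untreated cells. The next, 212377_s_at, read 1806 in anti-MYCN PNA cells, 2261 in mutated PNA cells and 1858 in untreated cells. Both have mutated PNA highest.
The other two had the treated array highest. Probe set 210756_s_at read 676 in anti-MYCN PNA cells, 467 in mutated PNA cells and 422 in untreated cells, and 202445_s_at read 166 in anti-MYCN PNA cells, 124 in mutated PNA cells and 129 in untreated cells. Against mutated PNA the 4 differences ran from −0.32 to 0.53 on the log2 scale, a spread of 0.86, where the median spread over 2179 genes with several probe sets past the filter was 0.40 and 95% of them stayed within 1.24. The direction for NOTCH2 against mutated PNA therefore depends on the probe set. Whether the sets read different transcripts was not tested, and the suffix _x_at marks probes that also match other transcripts.

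**Figure D1:**
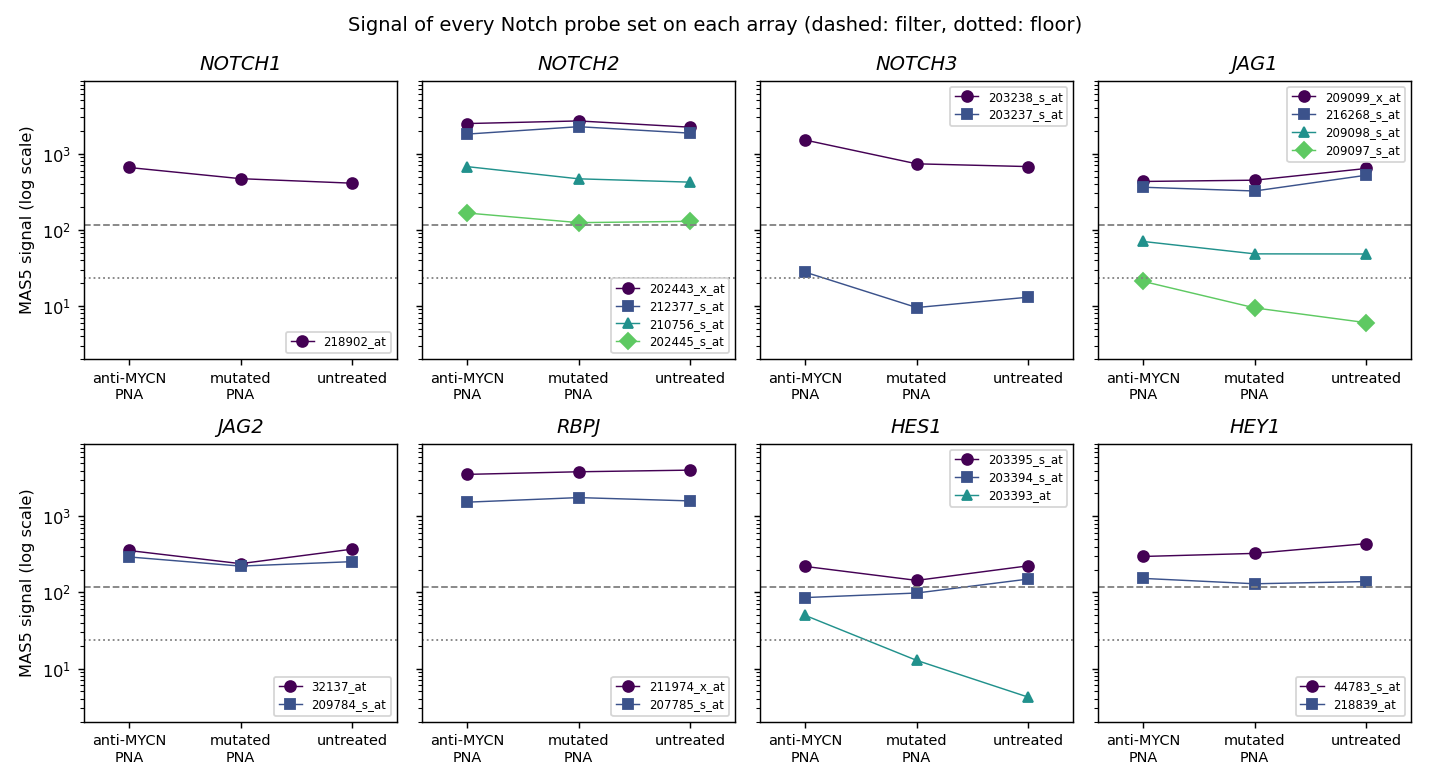
MAS5 signal (vertical axis, log scale) of each of the 20 Notch probe sets on the anti-MYCN PNA, mutated PNA and untreated arrays (horizontal axis), 1 panel per gene; lines join the 3 single values of a probe set, the dashed line is the filter of 117 and the dotted line the floor of 23.4. NOTCH3 stands at 1512 with anti-MYCN PNA, above either control, and the 4 NOTCH2 probe sets split into 2 orders.

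The ligand genes JAG1 and JAG2 were both higher in untreated than in mutated PNA cells, and they differed in where the anti-MYCN PNA array lay. JAG1, which encodes Jagged 1, read 431 in anti-MYCN PNA cells, 448 in mutated PNA cells and 639 in untreated cells by 209099_x_at. Its second probe set past the filter, 216268_s_at, read 362 in anti-MYCN PNA cells, 323 in mutated PNA cells and 521 in untreated cells. Both PNA arrays lie below untreated in each set. The log2 difference to untreated was −0.57 and −0.53 for anti-MYCN PNA and −0.51 and −0.69 for mutated PNA, and these comparisons share the untreated array. Between the 2 PNAs, given at the same dose, JAG1 differed by −0.06 and 0.16. Control pairs of like signal differed by at most 0.50 in 95% of genes, a range that the JAG1 difference between the controls just passes.

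The other JAG1 probe sets were dim and did not pass the filter. Probe set 209098_s_at read 70.2 in anti-MYCN PNA cells, 48.2 in mutated PNA cells and 48.0 in untreated cells, and 209097_s_at stayed below the floor on all 3 arrays. The first of them has the treated array on top, unlike the bright sets.

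JAG2, which encodes Jagged 2, read 356 in anti-MYCN PNA cells, 239 in mutated PNA cells and 371 in untreated cells by 32137_at. The anti-MYCN PNA and untreated arrays are near each other and mutated PNA is low. The log2 difference was 0.58 for anti-MYCN PNA minus mutated PNA, −0.06 for anti-MYCN PNA minus untreated and −0.64 for mutated PNA minus untreated, at a control spread of 0.64. The second set, 209784_s_at, read 293 in anti-MYCN PNA cells, 222 in mutated PNA cells and 254 in untreated cells. It has the same lowest array with smaller distances, 0.40 for anti-MYCN PNA minus mutated PNA and −0.19 for mutated PNA minus untreated.

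RBPJ, the DNA-binding protein through which Notch receptors act, differed little between arrays. Its brightest probe set, 211974_x_at, read 3560 in anti-MYCN PNA cells, 3853 in mutated PNA cells and 4050 in untreated cells. Probe set 207785_s_at read 1535 in anti-MYCN PNA cells, 1764 in mutated PNA cells and 1595 in untreated cells. The anti-MYCN PNA array is the lowest in both. The brightest set's differences of −0.11 to mutated PNA and −0.19 to untreated lie inside the 0.28 that bounds 95% of like genes between the controls, and 1972 genes lay as far or further below both controls.

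The target genes HES1 and HEY1, transcriptional repressors with a basic helix-loop-helix domain, read lower with mutated PNA than without PNA, and neither was 2-fold from a control. HES1, whose upstream motif is printed above, read 220 in anti-MYCN PNA cells, 144 in mutated PNA cells and 224 in untreated cells by 203395_s_at. Anti-MYCN PNA and untreated nearly coincide and mutated PNA is lower. The log2 differences were 0.61 for anti-MYCN PNA minus mutated PNA, −0.02 for anti-MYCN PNA minus untreated and −0.63 for mutated PNA minus untreated. All are within the 0.72 that held for 95% of like genes between the controls.

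The other HES1 probe sets placed the anti-MYCN PNA array elsewhere. Probe set 203394_s_at read 85.6 in anti-MYCN PNA cells, 98.3 in mutated PNA cells and 150 in untreated cells, with the treated array lowest, and its mean of 111 missed the filter narrowly. Probe set 203393_at read 50.1 in anti-MYCN PNA cells, 12.8 in mutated PNA cells and 4.20 in untreated cells, with the treated array highest. With both controls set to the floor its difference is 1.10 on the log2 scale, and it did not pass the filter. The sets past or near the filter thus have mutated PNA below untreated by −0.63 and −0.61, while anti-MYCN PNA against untreated was −0.02 in one and −0.81 in the other.

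HEY1 read 297 in anti-MYCN PNA cells, 326 in mutated PNA cells and 438 in untreated cells by 44783_s_at. Both PNA arrays lie below untreated. Its log2 differences were −0.13 for anti-MYCN PNA minus mutated PNA, −0.56 for anti-MYCN PNA minus untreated and −0.43 for mutated PNA minus untreated, against a control spread of 0.56. The second set, 218839_at, read 153 in anti-MYCN PNA cells, 130 in mutated PNA cells and 139 in untreated cells, with differences of 0.24, 0.14 and −0.10 in the same order. It does not have untreated on top, so the position of HEY1 below untreated rests on 1 probe set.

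**Figure D2:**
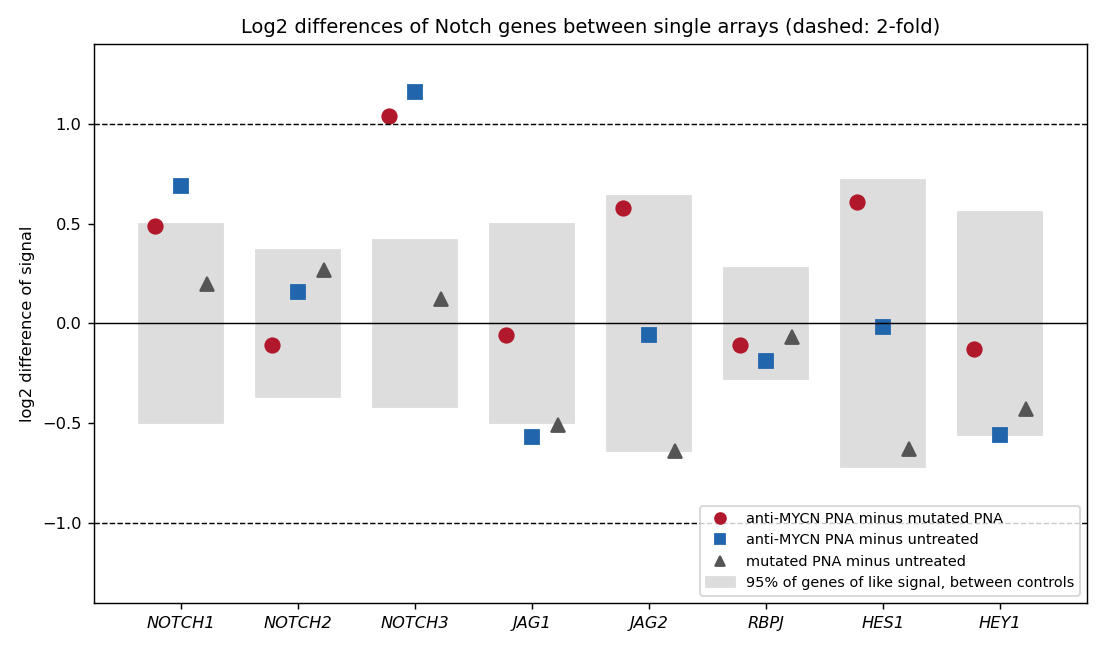
Log2 difference of signal (vertical axis) for the brightest probe set of each Notch gene (horizontal axis) in the 3 pairs of arrays; grey bars span the difference that 95% of genes of like signal stayed within between the controls, and dashed lines mark 2-fold. NOTCH3 lies past 2-fold against both controls at 1.04 and 1.16; JAG1, JAG2, HES1 and HEY1 lie between −0.43 and −0.64 for mutated PNA minus untreated.

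Of the 8 Notch genes 1, NOTCH3, was at least 2-fold higher with anti-MYCN PNA than on both controls, where 1.16% of 6745 genes were, and none was 2-fold lower, where 1.26% were. With the arrays brought to equal medians no Notch gene was 2-fold higher than both controls; over all genes 78 higher and 85 lower became 17 and 206, and quantile normalization gave 52 and 116. At 1.5-fold, NOTCH3 was again the one Notch gene higher than both, against 8.27% of genes, and none was lower, against 7.37%. Taken singly, anti-MYCN PNA was 2-fold above mutated PNA in NOTCH3 alone (2.70% of genes higher and 2.33% lower) and above untreated in NOTCH3 alone (3.07% higher and 2.31% lower). These 2 comparisons share the treated array. With 8 genes, a single call is little to read against shares of this size.

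Against mutated PNA, 4 Notch genes lay above and 4 below, with a median log2 difference of 0.22 and a range from −0.13 to 1.04, where the median of all genes was 0.06 and their SD 0.51. Against untreated 3 lay above and 5 below, with a median of −0.04, a range from −0.57 to 1.16 and the same median of 0.06 over all genes. The receptors NOTCH1 and NOTCH3 were above both controls, JAG1, RBPJ and HEY1 below both by 0.13 or less on the log2 scale from the nearer control, and NOTCH2, JAG2 and HES1 between them. Only for NOTCH1, NOTCH3, RBPJ and HES1 was this side the same under every alternative that could be run. NOTCH2 lay below both with equal medians. With the median over probe sets NOTCH2 (0.10) and JAG2 (0.07) lay above both and JAG1 and HEY1 between. HEY1 lay above both (0.14) without _x_at and _s_at sets. Over all genes 47.9% were above both and 37.6% below both.

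Between the controls, the brightest probe sets gave mutated PNA minus untreated differences of 0.20 for NOTCH1, 0.27 for NOTCH2 and 0.12 for NOTCH3 on the log2 scale. The ligands and target genes had −0.64 for JAG2, −0.63 for HES1, −0.51 for JAG1 and −0.43 for HEY1, and RBPJ had −0.07. Of these 8 differences JAG1 was the one outside the control spread of its signal class. That spread is made from the same 2 arrays, so here it only ranks a gene within its class. A dimmer probe set past the filter was nearer to 0 for JAG2 (−0.19), HEY1 (−0.10) and NOTCH2 (−0.05), while that of JAG1 was further from it (−0.69). The ligand gene DLL3, from the wider list below, had −0.08. Of all genes, 1.85% were as low as JAG2, 1.90% as low as HES1, 3.23% as low as JAG1 and 5.04% as low as HEY1. None of the 8 was 2-fold apart in either direction, where 0.371% of genes were higher and 0.371% lower. The median over the 8 was −0.25, against 0.00 over all genes, whose SD was 0.28.

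**Figure D3:**
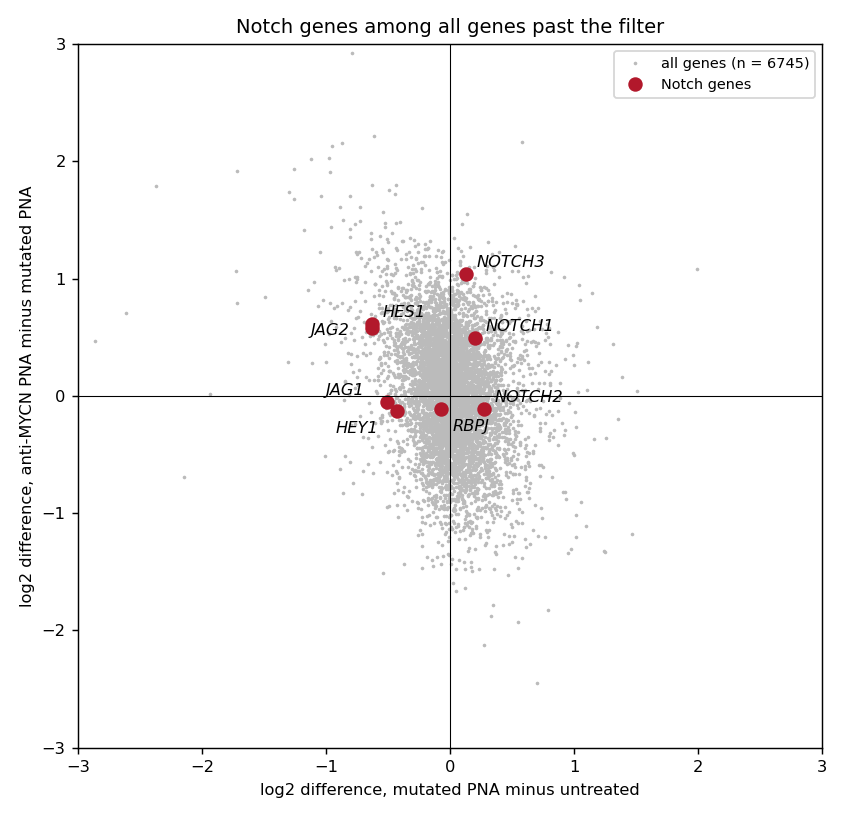
Log2 difference of anti-MYCN PNA minus mutated PNA (vertical axis) against mutated PNA minus untreated (horizontal axis) for 6745 genes (grey points) and the 8 Notch genes (red, named), each point a gene by its brightest probe set. Both axes hold the mutated PNA array, which tilts the cloud; the ligands and target genes lie left of 0, from −0.43 for HEY1 to −0.64 for JAG2, and NOTCH3 lies highest of the 8 at 1.04.

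A wider list of 62 other pathway genes was read in the same way, by role. Of these 47 had a probe set of their own and 36 passed the filter. FURIN was the 1 at least 2-fold higher than both controls (2.78% of the 36) and none was 2-fold lower, although CDK8 was with equal medians. At 1.5-fold 3 were higher (8.33%) and 2 lower (5.56%), shares near those over all genes. The median difference over the 36 was 0.16 to mutated PNA and 0.08 to untreated, with 20 genes above both controls and 11 below both. Quantile normalization gave 22 above and 10 below, where 45.5% of all genes were above and 39.6% below. Equal medians gave 14 above and 17 below, where 32.3% of all genes were above and 52.9% below.

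FURIN encodes the convertase that makes the first cut in Notch receptors during their maturation, and it read 215 in anti-MYCN PNA cells, 88.7 in mutated PNA cells and 61.9 in untreated cells. Both control signals are below the filter, so it passed through the treated array alone, as did 21 of the 78 genes called higher than both controls. ADAM10, the sheddase that makes the ligand-dependent cut, read 1901 in anti-MYCN PNA cells, 2937 in mutated PNA cells and 3318 in untreated cells, log2 differences of −0.63 and −0.80 at a control spread of 0.37. Its other 2 probe sets also had the treated array lowest: 214895_s_at read 252 in anti-MYCN PNA cells, 503 in mutated PNA cells and 619 in untreated cells, and 202604_x_at read 266 in anti-MYCN PNA cells, 413 in mutated PNA cells and 436 in untreated cells. All 3 ADAM10 probe sets thus gave the same order of arrays. Within each of NOTCH2, NOTCH3, JAG1, JAG2, RBPJ, HES1 and HEY1 the order differed between probe sets, dim ones included.

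The related sheddase ADAM17 lay above both controls, with 740 in anti-MYCN PNA cells, 521 in mutated PNA cells and 566 in untreated cells. Of the genes for gamma-secretase, the complex that releases the intracellular domain, PSEN2, NCSTN, APH1A and PSENEN lay above both controls and APH1B below. Differences to mutated PNA ran from −0.33 to 0.47. Only APH1A, at 0.47 to mutated PNA and 0.58 to untreated, lay outside its control spread of 0.46. PSENEN was 0.01 and 0.07 above them, and between them with quantile normalization. With equal medians PSEN2 lay between the controls, PSENEN below both, and APH1A (0.30 and 0.39) inside its spread. By their brightest probe sets the 2 sheddases lay on opposite sides of the controls under each scaling. ADAM17 was 0.51 above mutated PNA and 0.39 above untreated, at a control spread of 0.46, so the difference to untreated is inside it. With equal medians the difference to mutated PNA was 0.34, inside it too. ADAM17 has 3 probe sets, of which only the brightest was read here.

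In the glycosylation group all 3 genes past the filter lay above both controls. RFNG, a Fringe enzyme that extends sugars on Notch receptors, read 446 in anti-MYCN PNA cells, 267 in mutated PNA cells and 290 in untreated cells. POFUT1, which adds the fucose that Fringe enzymes extend, read 395 in anti-MYCN PNA cells, 241 in mutated PNA cells and 284 in untreated cells, and POGLUT1, a glucosyltransferase, had differences of 0.47 and 0.48. The ligand DLL3, known as an inhibitory member of its family, read 259 in anti-MYCN PNA cells, 159 in mutated PNA cells and 168 in untreated cells by an _x_at probe set. In the 2 signal classes that hold these genes the median difference of all genes to mutated PNA was 0.16, and the control spread was 0.72 for DLL3 and POGLUT1 and 0.64 for RFNG and POFUT1. Against mutated PNA, RFNG at 0.74 and POFUT1 at 0.71 lay outside it, DLL3 at 0.70 and POGLUT1 inside. Against untreated all 4 lay inside it. With equal medians RFNG at 0.57 and POFUT1 at 0.54 lay inside it against mutated PNA as well.

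In the receptor turnover group CDK8, a kinase that marks the Notch intracellular domain for destruction, read 684 in anti-MYCN PNA cells, 1274 in mutated PNA cells and 1324 in untreated cells. The controls lie close together, and the differences of −0.90 and −0.95 exceed their spread of 0.42. Both differences lie within the middle 95% of all genes, −0.97 to 1.02 against mutated PNA and −0.98 to 1.06 against untreated. With equal medians they were −1.07 and −1.15, which makes CDK8 the 1 gene of the wider list at least 2-fold lower than both. Its cyclin partner CCNC read 2398 in anti-MYCN PNA cells, 3271 in mutated PNA cells and 3309 in untreated cells, differences of −0.45 and −0.46 at a spread of 0.37. FBXW7, the ubiquitin ligase subunit that acts after CDK8, lay above both at 235 in anti-MYCN PNA cells, 164 in mutated PNA cells and 155 in untreated cells, and its differences of 0.52 and 0.60 lie inside its spread of 0.72.

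Of the coactivators none of 5 past the filter was 1.5-fold from both controls, and of the corepressors none of 9, where 8.27% of all genes were higher and 7.37% lower. Against mutated PNA but not untreated, CREBBP (−0.59 at a spread of 0.42), KAT2A (0.61 at 0.56) and TLE2 (0.65 at 0.64) lay outside their control spreads. HDAC2 lay outside its spread of 0.28 against both, at −0.40 to mutated PNA and −0.45 to untreated. Both HDAC2 distances are smaller than the SD of 0.51 over all genes in those comparisons. With equal medians KAT2A (0.44) and TLE2 (0.48) lay inside those spreads against mutated PNA, while CREBBP (−0.76) and HDAC2 (−0.57) stayed outside. CREBBP was then outside against untreated too, at −0.50. TLE4, at −0.45 to mutated PNA and −0.61 to untreated, moved outside its spread of 0.42. TLE1 moved outside its spread of 0.37 against mutated PNA only, at −0.48. The spreads are those under the trimmed mean. MAML1, the coactivator that completes the complex of RBPJ and Notch, read 1092 in anti-MYCN PNA cells, 945 in mutated PNA cells and 1025 in untreated cells. Among corepressors 3 lay above both controls and 4 below, from TLE2 at 0.51 to HDAC2 at −0.40 against the nearer control. The balance depended on scaling, with 6 above and 3 below under quantile normalization and 2 above and 7 below with equal medians.

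Of 10 further target genes 5 had a probe set of their own and 2 passed the filter. CCND1, the G1 cyclin, read 822 in anti-MYCN PNA cells, 441 in mutated PNA cells and 975 in untreated cells. Mutated PNA is lowest, as it also is for ADAM17, RFNG, POFUT1, MAML1 and others of the wider list. The share of all genes with mutated PNA lowest was not counted. The CCND1 difference of −1.15 for mutated PNA minus untreated made it the 1 gene of the wider list past 2-fold between the controls. The second CCND1 probe set gave −0.49 there. ID3 read 5265 in anti-MYCN PNA cells, 4850 in mutated PNA cells and 5478 in untreated cells, with the same array lowest. The furthest below untreated after CCND1 were NEDD4 at −0.56 and EP300 at −0.31, and the furthest above were FURIN at 0.52, DTX3 at 0.52 and CREBBP at 0.29. NEDD4, EP300, FURIN, DTX3 and CREBBP all lay inside their control spreads there. Probe sets below the filter went the other way for EP300 (0.33), CREBBP (−1.21) and DTX3 (−0.65). The dimmer DTX3 sets past the filter gave 0.28 and 0.20.

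**Figure D4:**
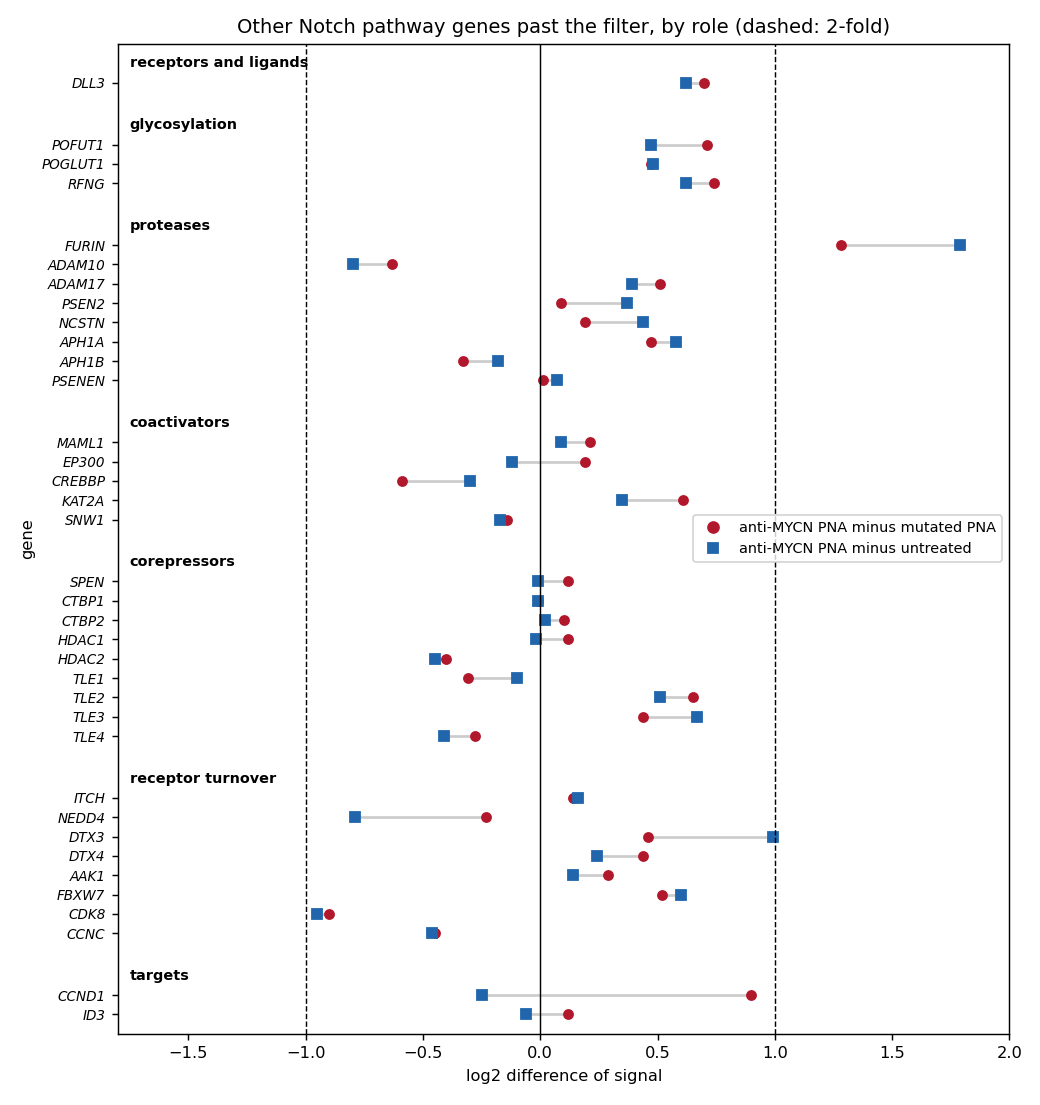
Log2 difference of signal (horizontal axis) of the 36 wider Notch pathway genes past the filter (vertical axis, grouped by role), as anti-MYCN PNA minus mutated PNA (circles) and minus untreated (squares); both share the treated array, and dashed lines mark 2-fold. FURIN lies past 2-fold on the higher side in both, at 1.28 and 1.79, and CDK8 lies furthest to the lower side at −0.90 and −0.95.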

How the data were processed

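Total RNA of RH30 cells was labelled with biotin and read on 3 Affymetrix arrays, grouped by title. The deposited intensities are linear signals, for which the submitters' processing notes name MAS5 and GCOS; genome build and detection calls are not given in the sources used here. Of 22277 probe sets 62 are controls, 19064 name 1 gene, 1043 several and 2108 none. Current symbols came from RefSeq by Entrez identifier for 19052 of them. Each array was scaled to one 2% trimmed mean (500.2 on all as deposited), then floored at 23.4 and put on the log2 scale. Genes were named by rule: every listed gene, those of the wider list 1.5-fold from both controls (up to 4 per role), and its 3 furthest each way between the controls. ADAM17, CCNC, FBXW7, POFUT1, POGLUT1, MAML1, KAT2A, TLE2, HDAC2, ID3, the gamma-secretase genes, LFNG, HEY2 and HEYL were chosen after their values were seen. Members and lists were chosen with earlier results of these data known. Alternatives were other scalings, floors, filters, probe-set rules and thresholds. The calling step was tested on simulated data for genes well above the filter. That test held no simulated 2-fold change and no dim genes, so it does not cover such calls. The tools were Python (version 3.11.15) with numpy 2.4.6, pandas 2.3.3 and matplotlib 3.10.9. The number of arrays, 1 per group, limits the precision.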

Additional observations from a re-analysis of the deposited data

How the results depend on the processing

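Of 186 values of single Notch genes under alternatives, 185 moved from the reported value by less than the control spread at their signal. The exception was HEY1 for anti-MYCN PNA minus untreated, 0.14 without _x_at and _s_at probe sets, where −0.56 was reported. In that setting 3 Notch genes remained measurable, and NOTCH3 was not among them. Of the 186 values, 24 each came from the deposited signals, no floor and no filter, and all of these equalled the reported values. They carry no information on stability. A value within the spread could still change sign, as NOTCH2 against mutated PNA did, from −0.11 to 0.10 with the median over probe sets. NOTCH3 ran from 0.87 with equal medians to 1.05 with quantile normalization for anti-MYCN PNA minus mutated PNA, and no other setting brought it below 2-fold. With the filter at the 75th percentile 3 Notch genes were left and the median was −0.11 for anti-MYCN PNA minus mutated PNA and 0.12 for mutated PNA minus untreated; fewer genes make that median. For all genes against both controls, higher and lower, the counts were 17 and 206 with equal medians, 622 and 182 without a filter, 13 and 24 with the filter at the 75th percentile, 558 and 497 at 1.5-fold and 3 and 3 at 3-fold; 50 were higher with a pseudocount of 16 and 35 without _x_at and _s_at probe sets. For the wider pathway list the higher count was 3 without a filter and at 1.5-fold, and 0 with the stricter filter and at 3-fold. The lower count was 1 with equal medians (CDK8), 1 without a filter (HEYL), and 2 at 1.5-fold. No paired analysis was possible because each group has 1 array.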

Other observations

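Dim pathway genes that the signal filter removed include the gene of a further Fringe enzyme and 2 relatives of HEY1. LFNG, which extends sugars on Notch receptors, read 82.7 in anti-MYCN PNA cells, 20.8 in mutated PNA cells and 38.0 in untreated cells. HEY2 read 60.4 in anti-MYCN PNA cells, 17.3 in mutated PNA cells and 1.90 in untreated cells, and HEYL read 18.1 in anti-MYCN PNA cells, 78.6 in mutated PNA cells and 57.7 in untreated cells. HEY2 and HEYL are both known as Notch targets, and their signals lay on opposite sides of the controls. Both HEY2 control signals, the HEYL signal with anti-MYCN PNA and the LFNG signal with mutated PNA are below the floor of 23.4. Fold values that use those signals are set by the floor. Without a filter these 3 join FURIN as the wider-list genes past 2-fold from both controls, where 622 of 11963 genes were higher and 182 lower. No detection calls were used for such signals.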
